A study of Mus musculus with 15 samples.

Results

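The 10 genes described here mark, or set, whether a cell is epithelial or mesenchymal: Cdh1, Epcam, Cdh2, Vim, Fn1, Snai1, Snai2, Twist1, Zeb1 and Zeb2. They were chosen by name, and all 10 were found among the 21662 genes counted in embryonic stem cells of the mouse (ESC), which are pluripotent cells of the early embryo kept in culture. RNA-seq was carried out in 15 samples of 6 groups, in 2 experiments. The KO experiment had 3 samples of the wild-type (WT) line, named a to c. It also had 2 samples (a, b) from each of 3 other lines, which are the Hmga1 KO, the Hmga1 add-back and, last, the Hmga2 add-back. In the Hmga1 KO, the third exon of Hmga1 had been mutated with Cas9, and the add-backs are KO cells that also carry a biotin-tagged Hmga1 or Hmga2 cDNA under the CAG promoter at a defined Lox site. A second experiment, on full deletion, had 3 samples of WT and 3 of a line (labelled Hmga1 KO too) that lacks the complete coding sequence of Hmga1, here called the full deletion. All groups derive from ESC of a mixed 129Sv-C57Bl/6 background. The parental cells express the biotin ligase BirA from the CAG promoter, and were grown on feeder cells or gelatine with serum and LIF. Each genotype is a single cell line, so an effect of the genotype and a property of the clone cannot be told apart.

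In an epithelial-mesenchymal transition (EMT), cells give up the junctions of an epithelium and take on a motile, matrix-producing state. The adhesion proteins E-cadherin (Cdh1) and Epcam are lost, while N-cadherin (Cdh2), the intermediate filament protein vimentin (Vim) and the matrix protein fibronectin (Fn1) are gained. Transcription factors of the Snail (Snai1, Snai2), Twist (Twist1) and Zeb (Zeb1, Zeb2) families drive the switch, and the Snail and Zeb proteins repress Cdh1 and other epithelial genes through E-box motifs. Hmga proteins, small chromatin proteins that bind AT-rich DNA, are known to promote EMT in cancer cells. ESC grow as compact colonies held together by E-cadherin.

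The promoters of Epcam and Vim are shown because Vim was the member that edgeR called in the full deletion, and Epcam the epithelial member with the larger log2 fold change in the KO and the add-backs. RefSeq sequences (GRCm38.p6) matched 5 of the 10 members, namely Epcam, Vim, Snai1, Twist1 and Zeb2. Each entry below covers the 250 bases before the start of transcription, on the plus strand. Capitals mark the motifs that were searched on both strands. The first motif was the E-box CAGGTG, which reads CACCTG when it lies on the opposite strand. The second was TATAAA, with its reverse complement.
Epcam, chr17:87635729-87635978: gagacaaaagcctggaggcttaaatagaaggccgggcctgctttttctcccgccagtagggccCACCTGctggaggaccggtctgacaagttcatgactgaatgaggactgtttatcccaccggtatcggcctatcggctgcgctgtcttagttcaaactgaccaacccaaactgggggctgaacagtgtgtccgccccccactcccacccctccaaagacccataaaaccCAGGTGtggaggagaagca
Vim, chr2:13574061-13574310: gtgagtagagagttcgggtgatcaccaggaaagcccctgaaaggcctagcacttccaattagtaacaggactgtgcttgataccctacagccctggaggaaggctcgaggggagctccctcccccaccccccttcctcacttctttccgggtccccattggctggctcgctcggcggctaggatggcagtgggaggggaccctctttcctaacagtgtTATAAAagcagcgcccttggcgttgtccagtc
The Epcam promoter held an E-box 187 bases and another 19 bases before the start, and the Vim promoter held a TATAAA 32 bases before it and no E-box. Among all 32851 promoter windows of 300 bases in the table, 20.21% held at least 1 E-box of these letters and 13.62% a TATAAA. In the windows of the other matched members, Snai1 had an E-box 126 bases before the start, Twist1 a TATAAA at the same distance, and the 4 starts of Zeb2 neither. A match is a run of letters only, and binding there was not measured here.

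Counts on genes summed to between 13465399 and 34952136 per sample in the KO experiment and between 14832310 and 21708492 in the full-deletion experiment. The letters a, b and c of the KO experiment are batches prepared and sequenced together, and WT c stands alone in its batch. In the full-deletion experiment WT b stood apart, with a normalization factor of 0.752 against 0.986 to 1.12 in the other 5 samples. Its top 10 genes held 8.78% of all counts, those of the others 4.67% to 5.38%. Pou5f1, which encodes the pluripotency factor Oct4, was at 573 RPKM in WT of the KO experiment and at 456 in WT of the full-deletion experiment. The feeder fibroblast markers Col1a1 and Col1a2 were at 0.0892 and 0.0579 RPKM in WT of the KO experiment, and at 0.132 and 0.00479 in WT of the full-deletion experiment.

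The targeted gene was examined first. Hmga1 was at 464, 276 and 220 CPM (counts scaled to 1e+06 per sample after TMM normalization) in WT a, b and c, and at 217 and 96.0 in KO a and b. By batch, Hmga1 in KO stood at 46.7% (a) and 34.8% (b) of WT. The samples labelled Hmga1 add-back had 184 and 123 CPM of Hmga1, and their level against KO (log2 fold change 0.04, SE 0.17) did not set them apart from KO. The counts thus do not check this label, and the Hmga1 protein was not measured here. By Western blot, the study did not detect the protein in KO and found it in the Hmga1 add-back at a level like that of WT. It also reports that KO cells make an Hmga1 transcript without the targeted exon. Hmga2 was at 249 and 222 CPM in the Hmga2 add-back and between 12.8 and 23.8 in WT. In the full deletion Hmga1 fell to 12.3, 10.9 and 12.1 CPM from 356, 310 and 354 in its WT (log2 fold change -4.86, SE 0.13, adjusted p = 1.06e-05, edgeR).

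The members fell into abundant and rare genes. Per length of the transcript, in WT of the KO experiment, Cdh1 was the most abundant with 132 ± 6.76 RPKM (SD, n = 3), above 97.5% of all genes. Vim (81.5 ± 18.7), Epcam (57.2 ± 7.12) and Fn1 (49.7 ± 14.4) followed, and the ranges of these 3 genes overlapped in part. Zeb1 was the only transcription factor of the set above 1 RPKM, with 4.05 ± 0.231, and Cdh2 had 1.34 ± 0.135. Twist1 (0.638 ± 0.151), Zeb2 (0.416 ± 0.119), Snai1 (0.296 ± 0.142) and Snai2 (0.136 ± 0.118) came last, and neighbours in this order did not differ beyond their spread. The ESC thus had the transcripts of the epithelial adhesion genes, of vimentin and of fibronectin at high level and those of N-cadherin and of most EMT factors at low level. WT of the full-deletion experiment gave the same order for the first 6 members, with 158 ± 14.7 RPKM for Cdh1 and 1.19 ± 0.343 for Cdh2 (SD, n = 3 each).

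**Figure D1:**
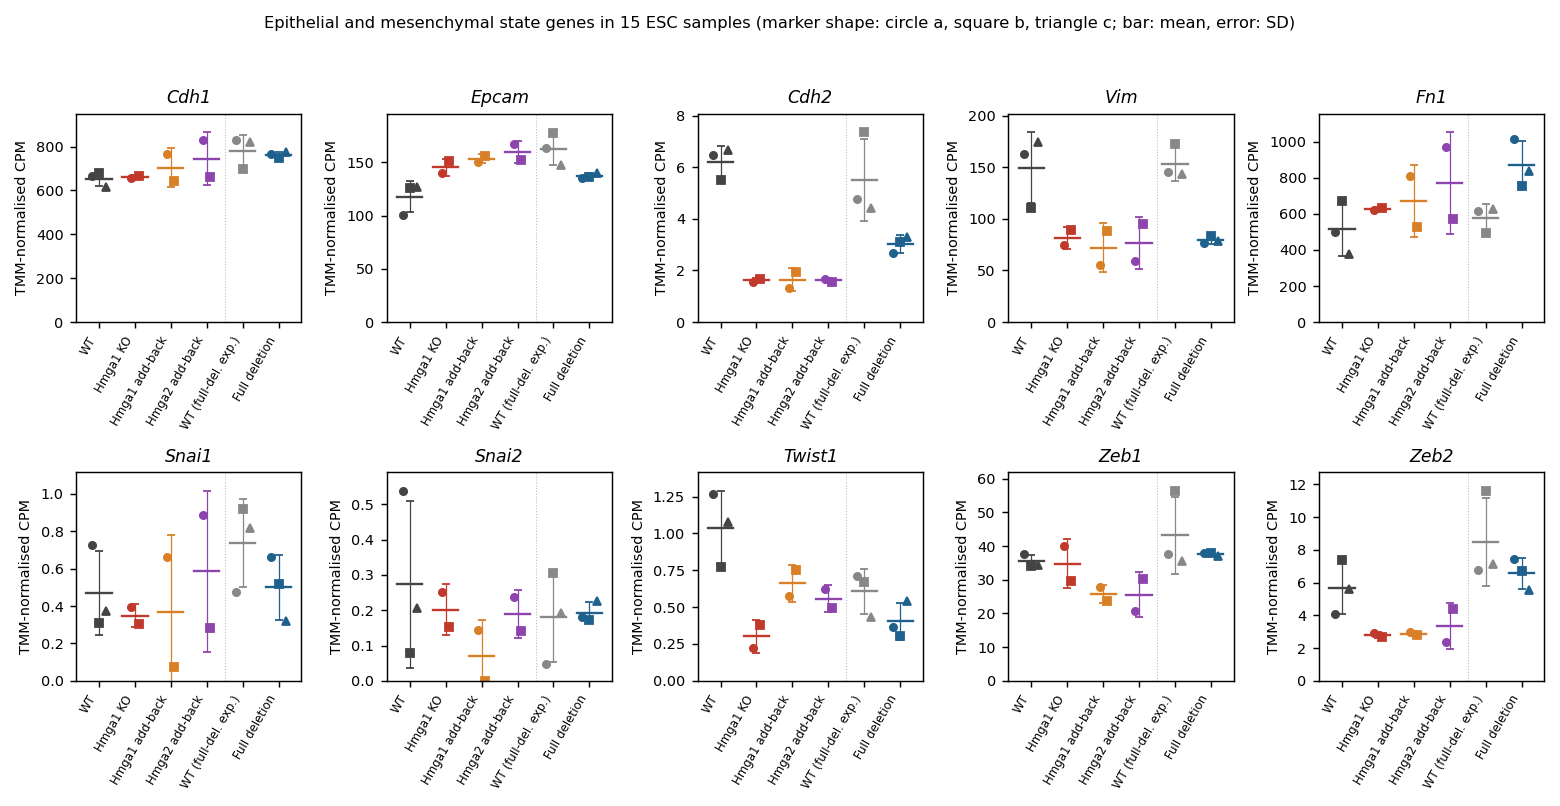
Level of each member in CPM (y axis, linear from 0) in the 6 groups (x axis), with a point per sample (circle a, square b, triangle c), a bar for the mean and an error bar of 1 SD, cut at 0 where it would go below. The dotted line separates the 2 experiments. Cdh2 lay between 1.32 and 1.95 CPM in the 6 KO and add-back samples and between 5.51 and 6.67 in the 3 WT samples beside them.

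E-cadherin hardly differed between the lines. Cdh1 was at 666, 680 and 616 CPM in WT and at 658 and 667 in KO. In the samples labelled Hmga1 add-back it was at 767 and 642, and in the Hmga2 add-back at 829 and 659. The ranges of all these groups overlapped, and the log2 fold change of KO against WT was -0.02 (SE 0.13). In the full-deletion experiment Cdh1 was at 828, 698 and 820 CPM in WT and at 765, 749 and 773 in the deletion, a log2 fold change of -0.04 (SE 0.12).

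Epcam, an adhesion protein of epithelia that is abundant in ESC, was at 101, 125 and 127 CPM in WT and at 140 and 151 in KO. It was at 150 and 156 CPM in the samples labelled Hmga1 add-back, and at 167 and 152 in the Hmga2 add-back. The 6 KO and add-back samples were all above the 3 WT samples, by 0.37 (SE 0.12) in KO, 0.44 (SE 0.12) with Hmga1 added back and 0.51 (SE 0.13) with Hmga2 added back, on the log2 scale. None of these differences passed the test (adjusted p = 0.312, 0.222 and 0.139, edgeR). How many of all genes separate their groups in this way was not counted, here or for the members below. The full deletion, by contrast, lay below its WT, with 135, 136 and 140 CPM against 164, 178 and 148 (log2 fold change -0.25, SE 0.11, adjusted p = 0.131, edgeR). In this case the direction depended on the scaling, since it was 0.05 when only summed counts were used to scale the samples.

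Cdh2 showed the largest difference of the adhesion genes. It was at 6.48, 5.51 and 6.67 CPM in WT, at 1.57 and 1.67 in KO, at 1.32 and 1.95 in the samples labelled Hmga1 add-back and at 1.69 and 1.55 in the Hmga2 add-back. All 6 samples of the 3 modified lines were far below the lowest WT sample. These lines share the KO clone and the same WT, so they are not independent repeats. KO had 24.2% of the WT level within batch a, and 30.4% within batch b. The log2 fold changes against WT were -1.90 (SE 0.30) in KO and, for the add-backs, -1.93 (Hmga1, SE 0.30) and -1.88 (Hmga2, SE 0.30), with an adjusted p of 0.0655, 0.0811 and 0.0683 (edgeR). Cdh2 thus stayed just outside the threshold of 0.05 in the 3 comparisons. DESeq2's Wald test put it inside, with an adjusted p of 0.00246, 0.00188 and 0.00171. The counts behind these values are small, with 78 reads over both KO samples (1.61 CPM before TMM, 95% exact Poisson interval 1.27 to 2.01) and 437 over the WT samples (6.23, interval 5.66 to 6.84). Such intervals cover counting error only.

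The full-deletion experiment gave Cdh2 at 4.79, 7.35 and 4.43 CPM in WT and at 2.66, 3.11 and 3.31 in the deletion. The groups did not overlap, and the log2 fold change was -0.85 (SE 0.24, adjusted p = 0.0599, edgeR). Without WT b, whose level was the highest, it was -0.60 (adjusted p = 0.0176, edgeR).

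Vim encodes vimentin, the intermediate filament protein of mesenchymal cells, and was the only member that edgeR called in any comparison. In the full deletion it fell to 76.5, 83.7 and 78.5 CPM from 145, 173 and 143 in WT. This is a log2 fold change of -0.95 (SE 0.11, adjusted p = 0.0171, edgeR), which met neither the adjusted p under 0.01 nor the 2-fold change that the study required. Without WT b it was -0.86 (adjusted p = 4.60e-09, edgeR), whereas without WT c or any 1 of the deletion samples the adjusted p lay between 0.071 and 0.147. In the KO experiment Vim was at 163, 111 and 175 CPM in WT, at 74.2 and 89.4 in KO, at 55.4 and 88.7 in the samples labelled Hmga1 add-back and at 58.7 and 94.7 in the Hmga2 add-back. All samples of the modified lines were again below the WT samples. The size differed by batch. In batch a the KO stood at 45.6% of WT and the Hmga2 add-back at 36.0%, whereas in batch b they stood at 80.8% and 85.7%. The log2 fold changes of -0.78 (SE 0.27), -0.99 (SE 0.27) and -0.90 (SE 0.27) against WT did not pass (adjusted p = 0.316, 0.217 and 0.190, edgeR).

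Fn1, which encodes fibronectin, did not go with the other mesenchymal genes. It was at 500, 673 and 376 CPM in WT of the KO experiment, and at 624 and 634 in KO. It was at 812 and 528 CPM in the samples labelled Hmga1 add-back, and at 970 and 572 in the Hmga2 add-back. These groups overlapped with WT, and the batches gave opposite directions, since the Hmga2 add-back stood at 194% of WT in batch a but at 85.0% in batch b. Fn1 in the full deletion was at 1016, 756 and 837 CPM, above all WT samples (616, 493 and 627). Its log2 fold change of 0.59 (SE 0.16) had an adjusted p of 0.0594 (edgeR). Without WT b it was 0.48 (adjusted p = 1.19e-04, edgeR).

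**Figure D2:**
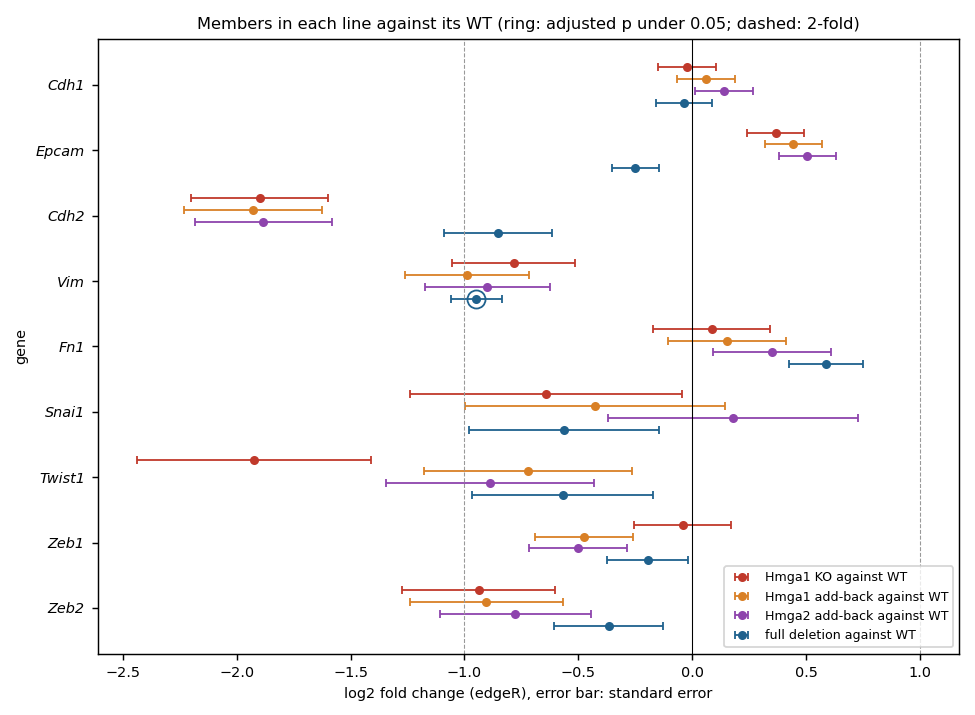
Log2 fold change (x axis) of the 9 members tested (y axis) in each line against the WT of its own experiment, with the SE as error bar. The ring marks Vim in the full deletion (-0.95), the only difference with an adjusted p under 0.05 in edgeR. Cdh2, Vim, Twist1, Zeb1 and Zeb2 lie left of 0 in all 4 lines, of which KO and the add-backs share a clone and WT samples. Epcam lies left of 0 in the full deletion only. With summed counts alone as scaling, Zeb1 (0.12) and Epcam (0.05) turned to the right of 0 in the full deletion. Zeb1 in KO (-0.04, SE 0.21) turned to 0.03 without WT a and to 0.17 without KO b.

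Of the EMT transcription factors, Zeb1 was the most abundant, with 37.7, 34.0 and 34.5 CPM in WT and 39.9 and 29.7 in KO. It was at 27.7 and 23.8 CPM in the samples labelled Hmga1 add-back, and at 20.8 and 30.2 in the Hmga2 add-back. KO overlapped with WT (log2 fold change -0.04, SE 0.21), while both add-backs lay below it by -0.48 and -0.50 on the log2 scale (SE 0.21 each, adjusted p = 0.389 and 0.289, edgeR). Zeb1 in the full deletion was at 38.0, 37.8 and 37.0 CPM, within the range of its WT (37.6, 56.2 and 35.5). There its log2 fold change was -0.20 (SE 0.18), and it was 0.04 without WT b and 0.12 when only summed counts scaled the samples.

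Zeb2 was at 4.11, 7.37 and 5.60 CPM in WT and at 2.92 and 2.66 in KO. It was at 2.96 and 2.77 CPM in the samples labelled Hmga1 add-back, and at 2.37 and 4.36 in the Hmga2 add-back. The log2 fold changes of -0.94 (SE 0.34), -0.90 (SE 0.33) and -0.78 (SE 0.33) had adjusted p of 0.333, 0.330 and 0.289 (edgeR). WT of the full-deletion experiment had 6.78, 11.6 and 7.13 CPM and the deletion 7.43, 6.73 and 5.54, so that these groups overlapped.

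Twist1 had 40, 10 and 26 reads in WT and 8 and 5 in KO, which came to 1.26, 0.776 and 1.08 CPM against 0.224 and 0.380. It was at 0.574 and 0.749 CPM in the samples labelled Hmga1 add-back and at 0.622 and 0.493 in the Hmga2 add-back, between KO and WT in each case. The log2 fold change of KO against WT was -1.92 (SE 0.51, adjusted p = 0.210, edgeR). Against KO the add-backs had 1.20 (SE 0.54) and 1.04 (SE 0.54), which did not pass either (the lower adjusted p was 0.877, edgeR). The full deletion had Twist1 at 0.363, 0.302 and 0.545 CPM, against 0.711, 0.674 and 0.433 in its WT.

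The Snail factors were close to the limit of detection. Snai1 was at 0.727, 0.310 and 0.373 CPM in WT, at 0.393 and 0.304 in KO, at 0.660 and 0.0749 in the samples labelled Hmga1 add-back and at 0.888 and 0.282 in the Hmga2 add-back. It was at 0.474, 0.919 and 0.819 CPM in WT of the full-deletion experiment and at 0.665, 0.518 and 0.318 in the deletion. Its groups overlapped in all comparisons. Snai2 had between 0 and 17 reads per sample and did not reach the mean count of 10 needed for a test. Its highest level over a group was 23 reads in WT of the KO experiment, 0.328 CPM before TMM (95% exact Poisson interval 0.208 to 0.492), and a difference was not detectable at this depth.

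The members were then counted against all genes tested. A member was called either at the threshold used in the study (adjusted p under 0.01 and at least 2-fold) or at an adjusted p under 0.05 (edgeR's quasi-likelihood test, Benjamini-Hochberg adjustment over all genes tested). In KO against WT 0 of the 9 members tested were called at either threshold, where 0.0216% and 0.0647% of all genes were. The Hmga1 add-back against WT had 0 members called beside 0.0144% and 0.0431% of all genes. For the Hmga2 add-back against WT it was 0 beside 0.0647% and 0.165%. Few genes of any kind were called. An unadjusted p under 0.05 was seen for 5, 4 and 5 of the 9 members in these comparisons, beside 12.6%, 13.3% and 16.9% of all genes tested. At an adjusted p under 0.05, limma-trend called 0 members in each of the 3, beside 9, 15 and 24 of the 13912 genes. DESeq2's Wald test called 1 (Cdh2), 2 (Cdh2 and Vim) and 3 (Cdh2, Vim and Epcam), but it also called 199, 201 and 336 of all genes. All of these comparisons share the same WT samples.

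In the KO experiment the number of calls against WT also depended on WT b. With WT b left out only WT a informs these comparisons, since WT c stands alone in its batch. In batch a Vim in KO stood at 45.6% of WT, and in batch b at 80.8%. Without WT b, 2 members (Cdh2 and Vim) were called in KO, and 3 (Cdh2, Vim and Epcam) for each add-back, at an adjusted p under 0.05. The number of all genes called grew with them, to 736 (KO), 806 (Hmga1 add-back) and 1312 (Hmga2 add-back) out of 14011 tested.

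Return of an Hmga protein to the KO cells went with no called difference among the members. In the Hmga1 add-back against KO 0 members were called, as were 0% of all genes at the threshold of the study and 0% at an adjusted p under 0.05. In the Hmga2 add-back against KO 0 members were called beside 0.00719% and 0.0144% of all genes, of which Hmga2 itself was one. By edgeR, 0 members had an unadjusted p under 0.05 in either comparison, beside 2.8% (Hmga1) and 5.09% (Hmga2) of all genes. DESeq2 and limma-trend called 0 members. The log2 fold change of Cdh2 against KO was -0.03 (SE 0.32) with Hmga1 and 0.02 (SE 0.32) with Hmga2 added back. Vim had -0.21 (SE 0.27) and -0.12 (SE 0.27), and Zeb1 -0.43 (SE 0.21) and -0.46 (SE 0.22). The range of Cdh2 in the add-backs overlapped with that of KO and not with that of WT.

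In the full deletion against WT 0 members were called at the threshold of the study, beside 0.0687% of all genes. At an adjusted p under 0.05, 1 member was lower (Vim) beside 3.77% of all genes, and 0 were higher beside 4.47%. A total of 4 of the 9 members (Vim, Fn1, Cdh2 and Epcam) had an unadjusted p under 0.05 in edgeR, beside 37% of all genes. Limma-trend called Vim as well, together with 1017 of the 13098 genes, and DESeq2's Wald test called Vim, Cdh2 and Fn1 together with 3239. Without WT b edgeR called 4 members, Vim, Cdh2, Fn1 and Epcam, but it also called 5592 of the 13163 genes then tested. With scaling by summed counts alone, the median over all genes went from 0.04 to 0.32 on the log2 scale, with 544 genes called higher and 120 lower in place of 586 and 494. Vim was still called there, with -0.65 (adjusted p = 0.030, edgeR).

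Whether the members responded differently to the full deletion and to the KO was tested as an interaction in a joint fit. Here 0 members were called at an adjusted p under 0.05, beside 0.307% of all genes. An unadjusted p under 0.05 in edgeR was seen for 2 of the 9 members (Epcam and Cdh2), beside 18.4% of all genes. Limma-trend called 0 members and 40 of the 13671 genes, and DESeq2's Wald test called Epcam among 329 genes. The effect on Epcam was lower in the full deletion by -0.63 on the log2 scale (SE 0.18, adjusted p = 0.173, edgeR), and that on Cdh2 was higher by 1.03 (SE 0.39, adjusted p = 0.241, edgeR). Without WT b of the full-deletion experiment both were called, among 667 genes of 13707. The lines and the experiments differ together here, so that they cannot be told apart.

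The balance of the classical cadherins can be read within each sample, where it does not depend on scaling between samples. The ratio of Cdh1 to Cdh2 in RPKM was 96.4, 116 and 86.6 in WT and 393 and 375 in KO. It was 545 and 309 in the samples labelled Hmga1 add-back, and 461 and 400 in the Hmga2 add-back. Ratios in the full-deletion experiment were 162, 89.1 and 174 in WT and 270, 226 and 219 in the deletion. Each modified line lay above all WT samples of its experiment, and this followed from Cdh2, since Cdh1 overlapped between the groups.

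**Figure D3:**
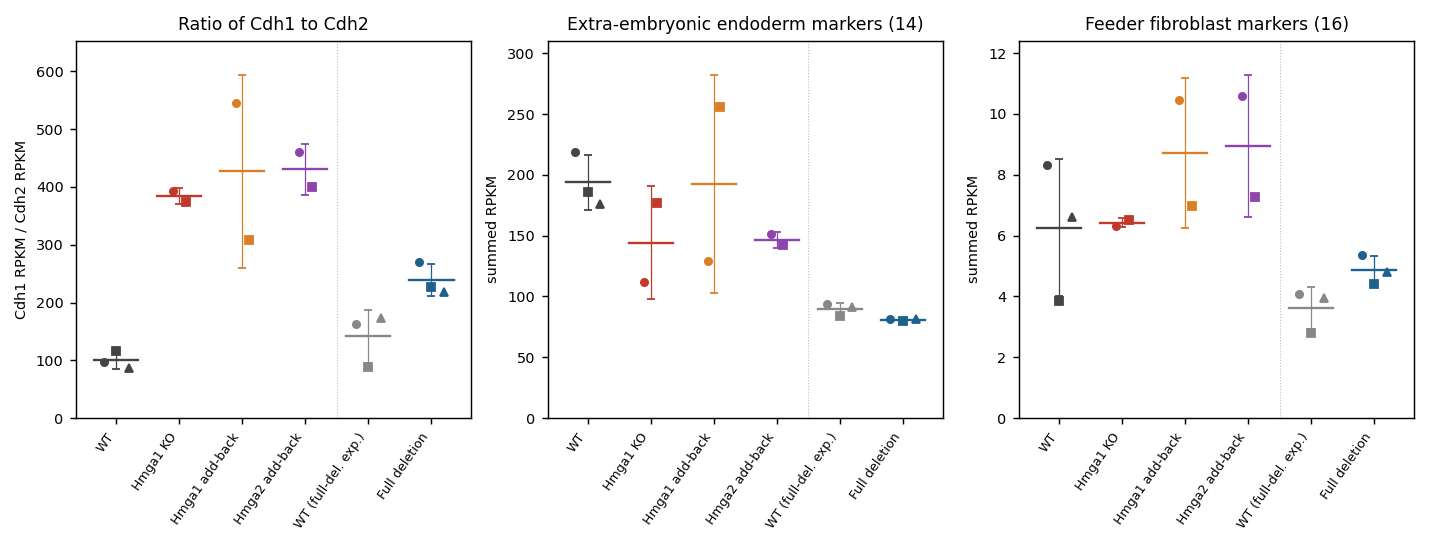
Ratio of Cdh1 to Cdh2 (left), summed RPKM of 14 markers of extra-embryonic endoderm (middle) and of 16 markers of feeder fibroblasts (right) in the 6 groups, with a point per sample (circle a, square b, triangle c), the mean as a bar and 1 SD as error bar. The ratio was between 86.6 and 116 in WT and between 309 and 545 in the KO and add-back samples.

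Other cell types could contribute to these genes, and their markers were read beside them. The 16 markers of feeder fibroblasts, mesenchymal cells rich in Vim and Fn1, summed to between 3.85 and 8.32 RPKM in WT and between 6.33 and 10.6 in KO and the add-backs. Over the full-deletion experiment the sum lay between 2.81 and 4.09 RPKM in WT and between 4.42 and 5.37 in the deletion. At levels near the limit of detection, the defining fibroblast genes Dcn (0 to 0.166 CPM) and Postn (0 to 0.0632 CPM) had reads in WT of the KO experiment. No other group had reads of them. Most feeder markers with enough reads for a test went the other way, though 0 were called (edgeR). Of 7 tested, 6 had a log2 fold change above 0 in KO against WT (median 0.48). In each add-back 5 of the 7 did (medians 0.82 for Hmga1 and 0.64 for Hmga2). In the full deletion it was 5 of 6 (median 0.54). Of the 16 markers, the 3 WT samples (in order) had 2, 7 and 1 at 0, and KO and add-back samples had 4 to 7. Genes at 0 depend on depth. In batch b, with 13465399 to 14585417 counts per sample, WT had 7 at 0 and the other lines 6 to 7. In the deeper batch a WT had 2 and the other lines 4 to 5. In the full-deletion experiment 7 to 8 were at 0 in WT and 6 to 7 in the deletion. The part of feeder cells in the difference in Vim and Cdh2 was not tested. The 14 markers of primitive and parietal endoderm, cells that arise from ESC and make much fibronectin, summed to between 176 and 219 RPKM in WT and between 112 and 177 in KO. Of the 13 endoderm markers tested, 0 were called in KO against WT (edgeR), 7 had an unadjusted p under 0.05 (12.6% of all genes) and all had a log2 fold change below 0, with a median of -1.66. In the Hmga1 add-back the endoderm sum was 129 and 256 RPKM, where Cdh2 was at 1.32 and 1.95 CPM. There the median was -0.83, and 1 of the 13 markers had a log2 fold change above 0. In the Hmga2 add-back the sum was 151 and 142 RPKM, below the WT samples, and the median was -1.31 with 0 of 13 above 0. The endoderm sum in the full deletion was between 80.1 and 81.5 RPKM, against 84.1 to 93.6 in its WT. There, however, the median log2 fold change was 0.05, beside 0.04 over all genes, and 6 of the 11 markers tested were above 0. Fewer cells of a type and less RNA per cell cannot be told apart in bulk samples, and the part of endoderm cells in the difference in Cdh2 and Vim was not tested. The summed ESC markers (15 genes) were between 3189 and 3691 RPKM in WT and between 3543 and 3747 in KO, and between 2700 and 4058 in the second WT and 2494 and 2506 in the full deletion. The markers of mesendoderm (10 genes) and of neural cells (10 genes) had 0 genes called in KO against WT and in the full deletion against WT (edgeR), where an unadjusted p under 0.05 was seen for 1 and 2 of the 5 and 5 genes tested in the KO and for 0 and 1 of the 3 and 5 tested in the full deletion (all genes, 12.6% and 37%).

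A total of 103 further genes of the epithelial and the mesenchymal state were followed in 5 lists. In KO against WT and in both add-backs against WT 0 of them were called by edgeR at an adjusted p under 0.05. In the KO the median log2 fold change was 0.20 for epithelial adhesion genes and keratins (23 tested), 0.17 for regulators of the epithelial state (15), 0.23 for genes of mesenchymal matrix and cytoskeleton (21), -0.22 for other EMT transcription factors (13) and -0.06 for signals and receptors (19). The median over all genes tested was -0.01. At an unadjusted p under 0.05 there were 3, 0, 7, 3 and 1 genes of these lists, or 15.4% of the 91 tested, beside 12.6% of all genes. In the Hmga1 add-back it was 28.6% beside 13.3%, and in the Hmga2 add-back 35.2% beside 16.9%. These comparisons share the WT samples and the KO clone. The lists were chosen with earlier results of these data known, so the shares are a description. Epithelial and mesenchymal genes thus had medians of the same sign and of like size in the KO. The summed RPKM of the lists, where abundant genes weigh more, moved apart. Regulators of the epithelial state summed to between 91.5 and 104 in WT and between 111 and 112 in KO. Other EMT transcription factors summed to between 250 and 288 in WT and between 198 and 219 in KO. Sums of the remaining lists overlapped between WT and KO, with means of 351 and 293 for mesenchymal genes. The sums were not tested.

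Of the 87 list genes tested in the full deletion, 8 (9.2%) were called at an adjusted p under 0.05, in both directions, beside 8.25% of all genes. Without WT c or any 1 of the deletion samples, edgeR called only 3 or 4 of all genes in this comparison. Of the epithelial genes, Pkp2, a component of desmosomes, fell from 84.7 ± 5.54 to 57.7 ± 0.581 CPM (log2 fold change -0.55, SE 0.09). Grhl2, a transcription factor that maintains epithelia, fell from 34.5 ± 4.03 to 23.2 ± 1.05 (-0.57, SE 0.12). Loxl2, an enzyme that crosslinks matrix, rose from 6.75 ± 0.399 to 13.3 ± 1.38 (0.98, SE 0.14). Each of these values is a mean with SD of n = 3. The transcription factor Zfp281 fell by 0.48 (SE 0.10) and Wwtr1, the Hippo pathway coactivator Taz, rose by 0.53 (SE 0.12) on the log2 scale.

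Of the 8 called genes, the signals Bmp7 and Bmp4 had the largest log2 fold changes. Bmp7, a bone morphogenetic protein, rose by 1.69 (SE 0.13, adjusted p = 0.00748, edgeR) and was the only list gene at the threshold of the study. Bmp4, another ligand of this family, had -1.43 (SE 0.16, adjusted p = 0.0137, edgeR), and the Notch ligand Jag1 had -0.53 (SE 0.12, adjusted p = 0.0419, edgeR). The adjusted p of the other 5 genes ran from 0.0203 for Loxl2 to 0.0413 for Wwtr1. In the KO, Bmp7 had 1.28 (SE 0.53), Bmp4 -0.78 (SE 0.44) and Loxl2 0.98 (SE 0.23), none of which passed. Among the marker lists Fgf4, a growth factor made by ESC, and Lamb1, a laminin chain abundant in parietal endoderm, were called lower in the full deletion, by -0.70 (SE 0.12) and -0.47 (SE 0.11) on the log2 scale. In the interaction 1 list gene was called, Fstl1, a secreted glycoprotein of mesenchymal cells, with 1.36 (SE 0.25, adjusted p = 0.0448, edgeR). The medians of the lists in the full deletion were 0.09, 0.28, 0.34, 0.09 and 0.19 in the order above, beside 0.04 over all genes tested.

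**Figure D4:**
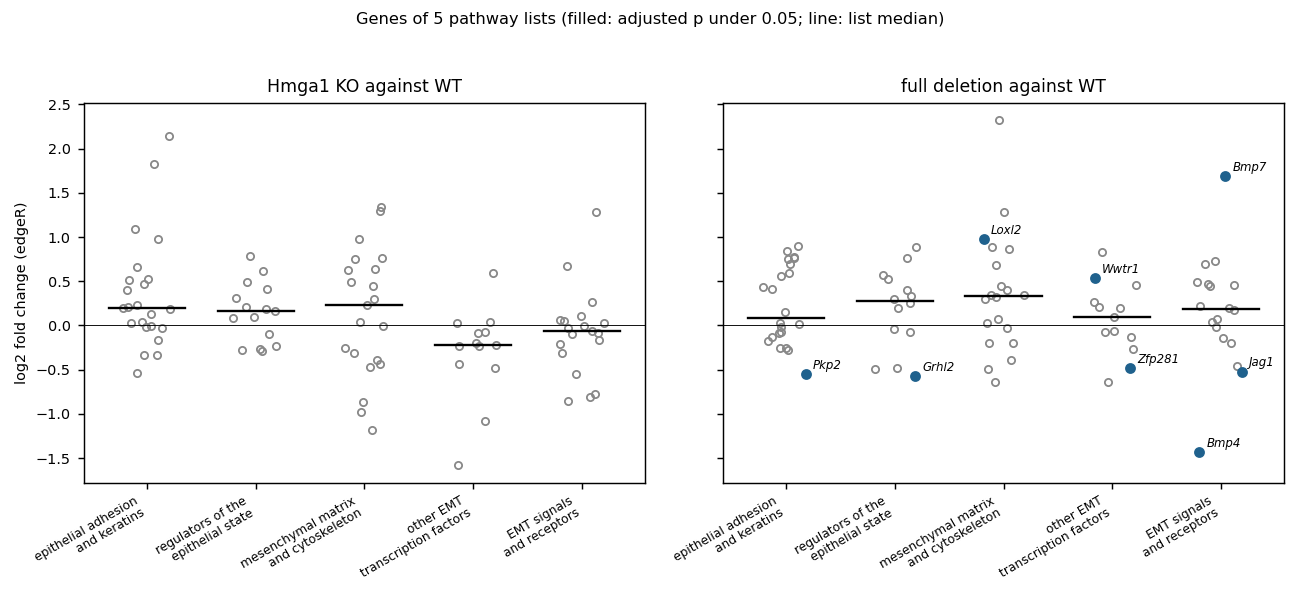
Log2 fold change (y axis) of each tested gene of the 5 lists (x axis) in KO against WT (left) and in the full deletion against WT (right). Filled points with names have an adjusted p under 0.05 and lines are list medians, which lie between -0.22 and 0.34.

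Across the 15 samples, after the mean of each experiment had been removed, some members varied together. Spearman's rho was 0.77 between Cdh2 and Vim, -0.88 between Vim and Fn1, 0.68 between Cdh1 and Fn1, and -0.64 between Cdh1 and Zeb1. For Cdh1 and Epcam it was 0.07. Samples of a line and of a batch share much of this variation, so the values are a description. Among 10838 genes, those closest to Cdh2 were Efnb2 (0.94), Ntn1 (0.94) and Mmp14 (0.91). Closest to Vim were Caml (0.98), Rbmxl1 (0.97) and Clmp (0.96), and closest to Fn1 were Prdm1 (0.97), Actn2 (0.96) and Fxyd6 (0.96). Klhl17 (0.92), Ube4b (0.91) and Sugp2 (0.91) were closest to Cdh1, and Fmr1nb (0.92), Tdrkh (0.89) and Lonrf3 (0.89) to Epcam.

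As Hmga proteins bind AT-rich DNA, the base composition of the members was read from the genome build of the counts (NCBIM37). Cdh2 (chromosome 18, 16747386 to 16967755) had 59.59% A and T over the whole gene, Zeb1 59.46% and Zeb2 59.04%, above 87.1%, 86.4% and 83.9% of 12309 genes. Vim (chromosome 2, 13495554 to 13504453) had 56.46%, and Fn1 (chromosome 1, 71632094 to 71699774) 56.34%. Epcam (chromosome 17, 88035319 to 88050446) with 53.64% and Cdh1 with 52.97% were near the median of these genes (53.64%). Snai1 (43.05%) and Twist1 (41.03%) were among the lowest 3.3% and 1.5%. Of the members with a log2 fold change below 0 in the KO, Cdh2, Zeb1, Zeb2 and Vim lay above this median. Twist1, with 13 reads in KO, Snai1 and Cdh1 lay below it. Zeb1 (-0.04) and Cdh1 (-0.02) had no settled direction over the fits. Fn1, with a log2 fold change of 0.09, lay above the median too, as did Snai2 (57.59%), which was not tested. None of these differences passed the test, and a relation of base composition to the changes was not tested.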

How the data were processed

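RNA-seq of 15 ESC samples was used, with ribosomal RNA depleted and strand-specific libraries prepared with ScriptSeq v2. The authors removed the first 3 bases of each read, aligned to mm9 (NCBIM37) with QuasR and Bowtie, placed multi-mapping reads at 1 random hit, and deposited raw counts per UCSC known gene, read on the same strand. Base calls were made with bcl2fastq 2.17 per the submitters' notes. Groups were taken from the labels. The paper reports independent cultures from different days, but not which sample of a line came from which culture. The p-values measure the spread between these samples of 1 line each. Chi-square per degree of freedom of the counts, larger where samples differ more, was 4.04 to 6.75 between deletion samples. In WT of that experiment it was 5.78 between a and c, and 133 to 140 between b and these. Within groups of the KO experiment it was at least 49.3. Fits of the full deletion without WT b thus rest on samples that differ little.

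Tests covered the genes whose counts averaged 10 or more over the samples fitted (13912 genes for the KO experiment, 13098 for the full deletion, 13671 for the joint fit). The tools were edgeR 4.0.16 (TMM, quasi-likelihood test, Benjamini-Hochberg adjustment) in R 4.3.3, and as alternatives limma-trend 3.58.1, which the study used, and DESeq2 1.42.0. SE was the size of the log2 fold change divided by the square root of the F statistic. RPKM was CPM per 1000 bases of exon. Batch was a term in the KO experiment, as in the study, which names its batches by the letters. WT c therefore adds nothing to the comparisons. Deviations from the group mean correlated between 0.16 and 0.86 for samples of a letter. WT c, however, correlated more than WT b with sample b of the Hmga1 add-back (0.35 against 0.16) and of the Hmga2 add-back (0.30 against 0.21). With KO b it correlated less (0.24 against 0.36). In the full-deletion experiment the letters do not pair samples (0.13, 0.14 and -0.06), and no term was used. Other alternatives were the scaling, the filter, the batch term, fits of the groups compared alone, and each sample left out. Rank correlations used log2 of CPM plus 0.5 in genes whose counts averaged 50 or more in both experiments. On counts simulated without a batch effect, edgeR recovered 81 of 100 genes given a 2-fold change in KO against WT and 85 in the full deletion. It also called 11 and 8 unchanged genes. The changed genes were drawn from those with a mean count of at least 100, so the result does not cover rarer members such as Cdh2 and Twist1. Plots were drawn with matplotlib 3.10.9. All 10 members were given in every sample, of the lists every gene at the threshold of the study and up to 3 more per list and comparison at an adjusted p under 0.05, and for Cdh1, Cdh2, Epcam, Vim and Fn1 the 3 genes closest in rank. The members and lists were chosen with earlier results of these data known.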

Additional observations from a re-analysis of the deposited data

How the results depend on the processing

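Depth limits Snai1, Snai2 and Twist1, and single samples decided most calls. Cdh2 and Vim were below WT in all 4 lines under every alternative run. With DESeq2's Wald test, 1, 2 and 1 members were called at the threshold of the study in KO, Hmga1 add-back and Hmga2 add-back against WT, and 1, 2 and 3 at an adjusted p under 0.05, with 3 in the full deletion and 1 in the interaction. DESeq2 called more of all genes too, with 76, 76 and 109 at the threshold of the study and 199, 201, 336, 3239 and 329 at an adjusted p under 0.05, against 9, 6, 23, 1080 and 42 in edgeR. With no filter on low counts it was 1 (Cdh2) at an adjusted p under 0.05 in each of the 3 comparisons with WT, among 93, 70 and 98 of 20907 genes. In fits of only the groups compared, 1 was called in KO at an adjusted p under 0.05, and 2 in the Hmga2 add-back, 1 of them (Cdh2) at the threshold of the study, among 68, 350 and 100 genes. Over fits with 1 sample left out, the members called at the threshold of the study ranged from 0 to 1 in KO and in both add-backs against WT. At an adjusted p under 0.05 they ranged from 0 to 2 in KO, from 0 to 3 in each add-back, from 0 to 4 in the full deletion and from 0 to 2 in the interaction. A lone sample left in a group is assumed to vary like the other groups. The cause of these changes was not tested.

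Without the replicate block, 0 members were called in the KO experiment, and the log2 fold change of Cdh1 in KO was 0.019. With a replicate block, 1 member (Vim) was called in the full deletion (-0.94, adjusted p = 0.0456, edgeR). With summed counts alone, the full deletion gave 0.23 for Cdh1, 0.045 for Epcam and 0.12 for Zeb1, and Cdh2 had 0.0017 in the Hmga1 add-back against KO. With limma-trend Cdh2 had -0.00315 in the Hmga2 add-back against KO.

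Some log2 fold changes had no settled direction over fits with 1 sample left out. In the comparison of the Hmga1 KO against WT the range was -0.13 to 0.091 for Cdh1, -0.30 to 0.58 for Fn1, -1.03 to 0.39 for Snai1 and -0.30 to 0.17 for Zeb1. In the comparison of the Hmga1 add-back against WT the range was -0.049 to 0.17 for Cdh1 and -0.26 to 0.62 for Fn1. In the comparison of the Hmga2 add-back against WT the range was -0.0597 to 0.81 for Fn1 and -0.034 to 0.26 for Snai1. In the comparison of the Hmga1 add-back against Hmga1 KO the range was -0.33 to 0.32 for Cdh2 and -0.49 to 0.044 for Vim. In the comparison of the Hmga2 add-back against Hmga1 KO the range was -0.10 to 0.11 for Cdh2 and -0.41 to 0.17 for Vim. In the comparison of the full deletion against WT the range was -0.32 to 0.038 for Zeb1.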
